A study of Mus musculus with 13 samples.

Results

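A culture of transduced mouse tail-tip fibroblasts, sampled before any colony was picked, was compared with colonies picked from such cultures. The mixed culture holds 1 array and the picked colonies, called induced hepatocyte-like cells (iHep), hold 4 arrays, so 5 of the 13 arrays of the series enter the comparison. They were taken by their titles. All cells were p19Arf-null and of strain C57BL/6-129. In the mixed culture, p19Arf-null tail-tip fibroblasts (TTF) received lentiviruses for 3 liver-enriched transcription factors and were collected at day 21, when the submitters saw both fibroblasts and epithelial cells in the dish. Each iHep array came from 1 colony of even epithelial cells derived from fibroblasts treated in the same way, grown in modified Block's medium and collected at day 21 after induction. The series' design text also names partial trypsin digestion as the step that enriched epithelial cells. The labels name neither the factors nor the animals, so the spread between colonies may be technical in part. Untreated p19Arf-null TTF, grown in DMEM with 10% serum to day 42 (3 arrays), serve as the fibroblast reference. They differ from iHep in day and medium as well, so culture time and medium cannot be told apart from conversion. The series also holds 4 arrays of cultured p19Arf-null hepatocytes at day 21 and 1 of p19Arf-null embryonic fibroblasts (MEF) at day 42.

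Fibroblasts make collagen-rich matrix and carry the contractile and growth-factor receptor genes of connective tissue. Hepatocytes are epithelial cells that secrete albumin and other plasma proteins under transcription factors of the Hnf, Foxa, Gata and Cebp families. In direct conversion, introduced factors switch on liver genes in fibroblasts, and cells that convert take on epithelial junctions while their mesenchymal genes go down. Interferons are secreted antiviral signals. Type I interferons, among them interferon beta, act through the Ifnar receptors on a large set of target genes, many of which carry a shared promoter element.

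Levels are log2 intensities with the 75th percentile of the array set to 0, and differences are the level in the mixed culture minus the mean of the 4 iHep arrays. A gene was counted where this difference was at least 2 (4-fold) and the mixed culture lay outside all 4 iHep arrays. One array on one side allows no test, so every difference below is a description of these arrays. Among the colonies, the mixed culture came closest to iHep 1, from which 1310 genes lay at least 4-fold apart. Then came iHep 2 (1477), iHep 3 (1901) and iHep 4 (2197). The other arrays overlapped this range, with 2093 to 2335 genes for TTF, 2026 for MEF and 1938 to 2797 for hepatocytes. By this count, which includes dim genes, iHep 4 lay farther from the mixed culture than TTF 1 (2093), MEF or hepatocyte 4 (1938). By rank correlation with the mixed culture, iHep 4 (0.922) was again farther than TTF 1 (0.939) and MEF (0.941). It was not farther than hepatocyte 4 (0.920). The colonies themselves fell into 2 pairs. iHep 1 and 2 differed at 819 genes and iHep 3 and 4 at 406, whereas colonies of different pairs differed at 2310 to 2793. The Y-linked gene Eif2s3y had a level of 1.17 in the mixed culture, 0.60 and 1.34 on iHep 1 and 2, and -9.04 and -8.58 on iHep 3 and 4, against 2.32 to 2.44 on TTF. Xist, the RNA of the inactive X chromosome, was the reverse, at -9.14 in the mixed culture, -8.84 and -7.10 on iHep 1 and 2, and 2.02 and 1.95 on iHep 3 and 4. Y-linked transcripts mark male cells and Xist marks female cells. The mixed culture, TTF and iHep 1 and 2 thus had the male pattern and iHep 3 and 4 the female one, while the labels give no sex. Sex and colony pair cannot be told apart, and ranges over the 4 colonies span both. On iHep 2 a smaller share of genes was above the limit of measurement (73.8%) than in the mixed culture (86.1%) or on the other iHep arrays (81.6% to 89.0%). The mixed-culture array also had runs of adjoining features that were all bright or all dim, and genes that rest on them are named as such.

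Of 19087 genes measured, 528 (2.77%) were higher and 234 (1.23%) lower in the mixed culture. Of the 528 higher genes, 217 were at least 4-fold above each of the 4 iHep arrays, and of the 234 lower genes 27 were at least 4-fold below each. The lower side followed the colony pairs, since 106 of these 234 genes were 4-fold below only iHep 3 and 4, and 84 were not above the limit in the mixed culture. Against iHep 1 and 2 alone, 784 genes were higher and 392 lower, and against iHep 3 and 4 alone 955 and 917. Without iHep 1 the lower count came to 419. Over all genes the median difference was -0.16. In such bulk samples, fewer cells of a type and less RNA per cell cannot be told apart. The mixed culture lay below every TTF array for 214 of the 528 higher genes (40.5%), about the share over all genes (41.3%), and above every TTF array for 241 (45.6%, against 24.1% of all genes). Among the counted genes of the lists described next, it lay below every TTF array for 10 of 11 collagens and 9 of 12 fibroblast markers, and above every TTF array for 21 of 22 interferon genes.

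**Figure D1:**
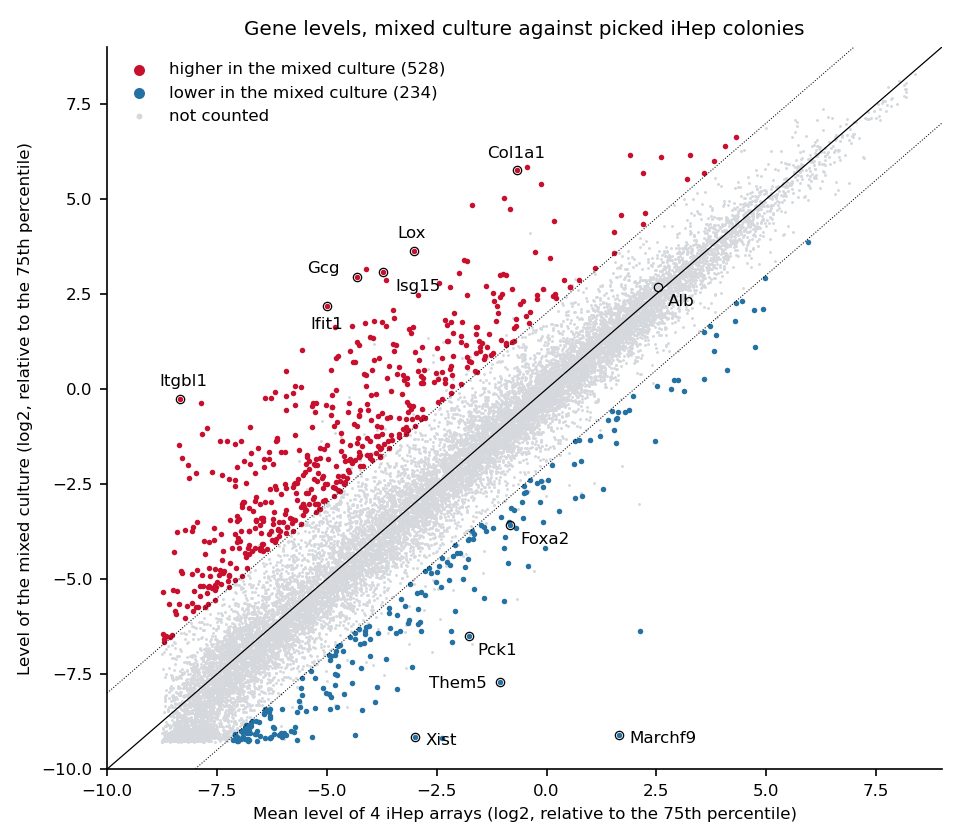
Level of every gene in the mixed culture (vertical axis, 1 array) against the mean of the 4 iHep arrays (horizontal axis), both in log2 with the 75th percentile of the array at 0. The solid line marks equal levels and the dotted lines a 4-fold difference. Red points are the 528 higher genes and blue points the 234 lower genes, with Alb close to the line of equal levels.

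Interferon response genes had the highest share of counted members among the 30 gene lists. Of 26 measured members, 22 were higher (84.6%, against 2.77% of all genes) and 0 lower, with a median difference of 3.49. The mixed culture was above every iHep array for 23 of the 26, against 10.8% of all genes, and above all 12 other arrays of the series for 17, against 2.2% of all genes. It exceeded every TTF array for 25 of the 26, against 24.1% of all genes. The largest differences were those of Ifit3, Ifit1 and Isg15, antiviral effector genes that serve as standard readouts of interferon signalling. Their promoters, with those of Gbp3 and Oas1a, are shown because they carry the interferon-stimulated response element, the DNA site shared by many interferon targets. The sequences are from RefSeq (GRCm38.p6), read 5′ to 3′ on the strand of the gene, and end before its start. Capitals mark matches to GAAA, any 2 bases and GAAA again, or to its reverse complement with TTTC on both sides, and matches may overlap. The stretches are chr19:34583348-34583441 (plus strand) for Ifit3, chr19:34640760-34640838 (plus) for Ifit1, chr4:156200850-156200921 (minus) for Isg15, chr3:142559974-142560039 (plus) for Gbp3 and chr5:120907526-120907570 (minus) for Oas1a.
Ifit3: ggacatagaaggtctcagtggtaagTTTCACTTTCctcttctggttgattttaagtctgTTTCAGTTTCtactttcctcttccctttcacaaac
Ifit1: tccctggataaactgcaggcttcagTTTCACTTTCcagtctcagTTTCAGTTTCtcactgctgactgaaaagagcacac
Isg15: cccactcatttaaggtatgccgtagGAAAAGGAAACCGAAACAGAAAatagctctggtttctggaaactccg
Gbp3: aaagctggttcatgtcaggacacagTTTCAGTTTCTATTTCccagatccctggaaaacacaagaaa
Oas1a: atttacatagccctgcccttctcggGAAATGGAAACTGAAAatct

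These 5 were the counted members with the largest differences among the 9 with a match wholly before the start. Over the whole window, from 250 bases before to 50 after the start, 11 of the 19 counted interferon genes with a window held a match on either strand (57.9%). The same held for 601 of 15306 genes over the array (3.93%). Among the counted higher genes outside the list, 34 of 370 with a window held one (9.19%), and among the lower genes 5 of 178 (2.81%). A match describes the letters in the window and does not show binding.

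Ifit3 had a level of 3.16 in the mixed culture, -1.97, -1.62, -6.03 and -6.85 on the 4 iHep arrays, and 0.80 to 1.32 on TTF, a difference of 7.27. The 2 colony pairs lay apart for this gene, and the mixed culture lay above both and above TTF. Ifit1 had a level of 2.17 in the mixed culture and averaged -4.99 ± 0.44 (SD, n = 4) on iHep, with TTF between -1.77 and -1.50. Isg15, a ubiquitin-like modifier, had a level of 3.08 in the mixed culture and -2.79, -4.29, -3.89 and -3.95 on the iHep arrays, with TTF between -1.51 and -1.07. For Ifit1 and Isg15 the colonies were close together (SD 0.44 and 0.65), and the differences were 7.17 and 6.81 (144-fold and 113-fold). The SD of the colonies does not give the spread between mixed cultures, which 1 array cannot show. Usp18, which removes Isg15 from proteins, differed by 5.58.

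The transcription factors of the pathway were not alike. Irf7, the factor that amplifies interferon production, had a level of 0.81 in the mixed culture and averaged -4.79 ± 0.57 (SD, n = 4) on iHep, a difference of 5.59. Irf9 was also counted (2.08), while Stat2 lay above every iHep array by less than the 4-fold asked for (2.27 in the mixed culture and 0.35 to 0.99 on iHep). Irf1 did not separate, at -2.47 in the mixed culture and -2.62 to -2.38 on iHep. The RNA sensors Ifih1 (3.15) and Ddx58 (2.08) were counted. So were Oas2 (5.82) and Oas1a (5.40), which make the signal that activates RNase L, the guanylate-binding protein genes Gbp3 (5.50) and Gbp2 (4.66), and Psmb8, Psmb9 and Tap1 (2.48 to 3.28), which supply peptides for antigen presentation. Mx1 and Mx2 encode related antiviral GTPases. Mx2 was counted (3.21), but Mx1 had a level of -4.71 in the mixed culture, -7.16 and -7.51 on iHep 1 and 2, and -1.07 and -1.22 on iHep 3 and 4. The 4 members not counted were therefore Stat2, Irf1, Mx1 and the exonuclease gene Isg20, whose level of 0.90 fell inside the iHep range of -0.30 to 2.09.

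The chemokine genes Cxcl10 and Cxcl9, which draw T cells and respond to interferon, were both higher. Cxcl10 had a level of 3.41 in the mixed culture, 0.50 on iHep 1 and 2, and -4.62 and -3.88 on iHep 3 and 4, so that the distance from iHep 1 and 2 was smaller. No iHep array was above the limit for Cxcl9, and the mixed culture was at least 64.9-fold higher. Zbp1, a sensor of Z-form nucleic acid, had a level of 1.04 in the mixed culture and -6.07 to -4.65 on iHep (difference 6.61). Ligand genes and the Ifnar receptor genes were looked up after these values were seen. Ifnb1, for interferon beta, had a level of -6.02 in the mixed culture, where it was above the limit, and was not above it on any iHep array, which makes it at least 1.85-fold higher. Ifna4 and Ifng were not above the limit in the mixed culture. The receptor gene Ifnar1 had a level of 1.55 in the mixed culture, inside the iHep range of 1.28 to 2.57, and Ifnar2 had 2.95, just below the iHep range of 3.19 to 3.46.

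The count of interferon genes was 20 of 26 against iHep 1 and 2 alone and 19 of 26 against iHep 3 and 4 alone. Leukocytes also carry many of these genes. Of 22 macrophage and leukocyte genes, 0 were higher and 1, Ptprc, was lower (4.55%, against 1.23% of all genes). In the mixed culture 14 of the 22 were above the limit, while Ptprc (CD45), Adgre1 (F4/80) and Itgam were not. Whether the culture held leukocytes was not tested. The log2 of the summed level of all 22 was 3.89 in the mixed culture, 3.97 to 5.17 on iHep and 0.04 to 0.74 on TTF. Such a sum follows the brightest members. The median level of the 22 was -5.92 in the mixed culture, -6.62 to -6.32 on iHep and -7.01 to -6.05 on TTF. The mixed culture lay below every iHep array for 10 of the 22, against 25.1% of all genes. For the interferon list the log2 of the summed level was 6.96 in the mixed culture, 3.54 to 3.97 on iHep and 3.91 to 4.35 on TTF. On the 4 cultured hepatocyte arrays it was 4.03 to 6.04, and the leukocyte sum was 5.10 to 8.41, both highest on hepatocyte 1. With 1 array, what belongs to the culture condition and what to this sample cannot be told apart.

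**Figure D2:**
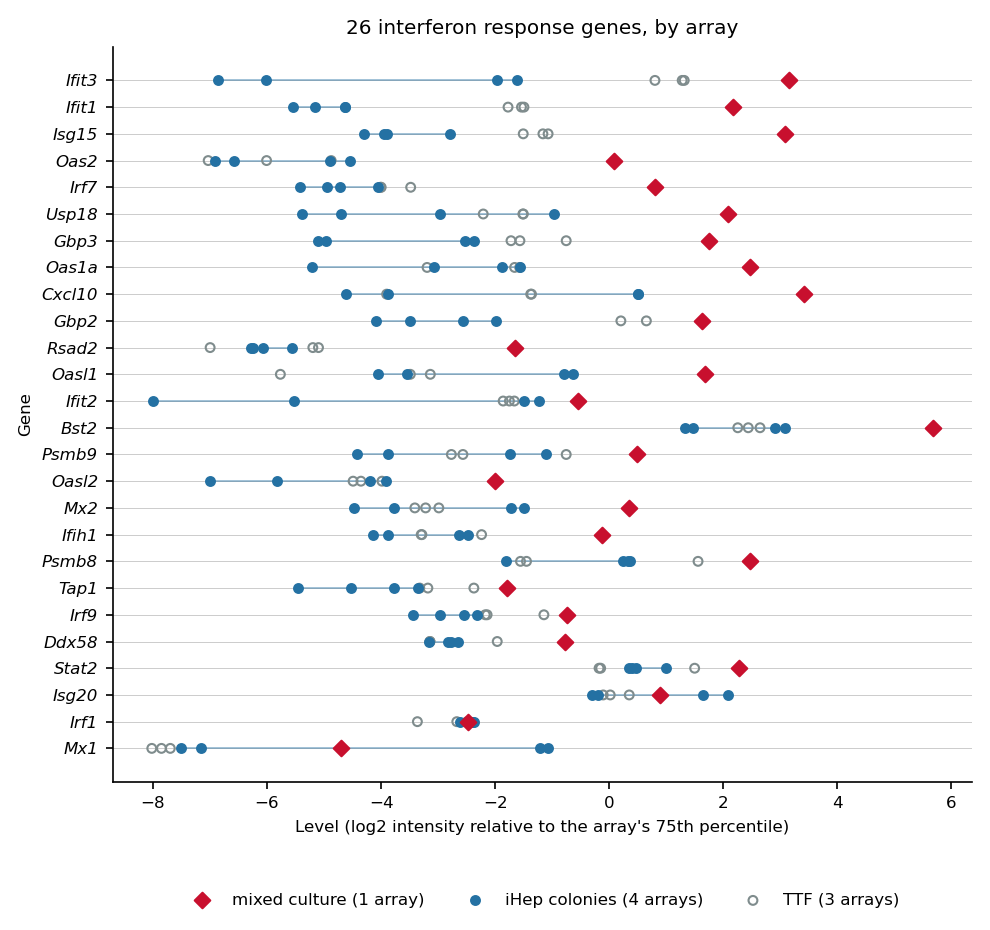
Levels of the 26 interferon response genes (log2 intensity, 75th percentile of the array at 0), ordered by the difference between the mixed culture (red diamonds, 1 array) and the iHep mean. Blue points are the 4 iHep arrays joined by a line over their range, and open grey circles are the 3 TTF arrays. The mixed culture lies to the right of every iHep array for 23 genes.

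Collagen and matrix genes formed the second group. Of 19 measured collagens 11 were higher (57.9%) and 0 lower, with a median difference of 2.37. Of 45 other matrix genes 21 were higher (46.7%, against 2.77% of all genes) and 0 lower, with a median of 2.18. The mixed culture was above every iHep array for 33 of these 45, against 10.8% of all genes. Col1a1, for the main chain of type I collagen, had a level of 5.76 in the mixed culture, -6.06, -3.72, 3.10 and 3.98 on the iHep arrays, and 7.16 to 7.57 on TTF. The colonies of the 2 pairs lay far apart, and the mixed culture lay between the highest colony and TTF. Its partner Col1a2 had a level of 0.77 in the mixed culture, against -6.67 and -5.65 on iHep 1 and 2 and -1.65 and -1.69 on iHep 3 and 4. Col5a2, a chain that sets fibril width, had 2.88 in the mixed culture, against -7.43 to 0.09 on iHep and 5.71 to 6.38 on TTF (difference 6.54). Col3a1, for type III collagen, was counted with a smaller difference of 2.37, or 5.25 by its brightest probe.

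Other matrix genes showed differences of similar size. Lox, the lysyl oxidase gene for collagen crosslinking, had a level of 3.64 in the mixed culture, -6.48, -3.82, -1.15 and -0.59 on the iHep arrays, and 5.75 to 6.76 on TTF, a difference of 6.65. The microfibril gene Mfap5 differed by 6.67, and 1 colony alone was above the limit for it. Mmp3, for stromelysin, had a level of 5.40 in the mixed culture, -3.33 to 2.55 on iHep and 2.84 to 6.38 on TTF, so that it lay within the TTF range. Its relative Mmp2 was not counted although its difference was 4.29, because its level of -0.20 lay under that of iHep 4 (-0.10). Fn1, for fibronectin, lay above every iHep array but only just above iHep 4 (2.59 in the mixed culture and 0.03 to 2.32 on iHep). For 12 of 19 collagens and 23 of 45 other matrix genes the mixed culture was above every iHep array and below every TTF array, against 4.23% of all genes.

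Of 31 fibroblast surface and identity markers 12 were higher (38.7%, against 2.77% of all genes) and 0 lower, with a median of 1.21. The log2 of their summed level was 6.06 in the mixed culture, 4.61 to 5.91 on iHep and 8.01 to 8.59 on TTF. Itgbl1, an integrin beta-like secreted protein gene, showed the largest difference on the higher side over all genes. Its level was -0.26 in the mixed culture and 2.34 to 2.82 on TTF, no iHep array was above the limit, and it was at least 103-fold higher. Thy1, a surface glycoprotein of fibroblasts, had 0.51 in the mixed culture, -7.29 and -6.45 on iHep 1 and 2, -0.68 and -1.45 on iHep 3 and 4, and 4.36 to 4.78 on TTF. The platelet-derived growth factor receptor gene Pdgfrb had 3.00 in the mixed culture, -2.42 to 0.20 on iHep and 4.54 to 6.14 on TTF. Pdgfra was counted too, but its iHep mean rested on iHep 2 (-6.84), and the other colonies (0.07 to 1.15) were close to the 1.79 of the mixed culture. Vim, the intermediate filament gene of mesenchymal cells, did not separate, at 0.36 in the mixed culture and -0.81 to 0.96 on iHep, and neither did the collagen receptor gene Ddr2 (1.46 and 1.29 to 2.09).

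Contractile genes followed the colony pairs. Of 22 measured, 6 were higher (27.3%, against 2.77% of all genes) and 0 lower with all 4 colonies. The higher count was 2 against iHep 1 and 2 alone and 8 against iHep 3 and 4 alone. Acta2, for smooth muscle actin, had a level of 3.44 in the mixed culture, 1.39 and 1.89 on iHep 1 and 2, -1.36 and -1.62 on iHep 3 and 4, and 5.70 to 6.17 on TTF. Among 22 regulators of the mesenchymal-epithelial transition 7 were higher (31.8%, against 2.77% of all genes) and 0 lower. Twist1, a mesenchymal helix-loop-helix factor, had -0.01 in the mixed culture, -6.19 to -3.29 on iHep and 2.12 to 2.41 on TTF (difference 4.77). Prrx2 (4.19), Twist2 (3.46) and Snai1 (3.41), the zinc-finger repressor of E-cadherin, were also counted. Its relative Snai2 (2.70 in the mixed culture and -0.31 to 3.35 on iHep) and Zeb1 (-2.34 and -3.23 to -2.03), which repress the same target, lay inside the iHep range.

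**Figure D3:**
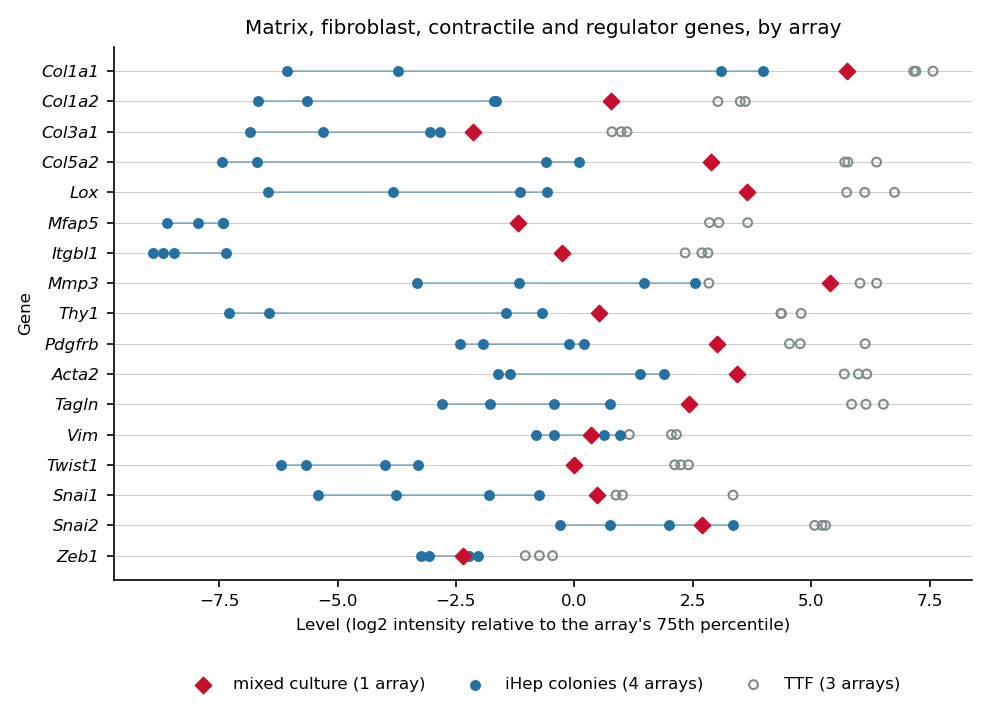
Levels of 17 matrix, fibroblast, contractile and regulator genes (log2 intensity, 75th percentile of the array at 0) in the mixed culture (red diamonds, 1 array), the 4 iHep colonies (blue, joined over their range) and the 3 TTF arrays (open circles). Most diamonds lie between the colonies and TTF, while Vim, Snai2 and Zeb1 lie within the iHep range.

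Of 25 plasma carrier and apolipoprotein genes 1 was higher and 1 was lower (4% each, against 2.77% and 1.23% of all genes). Inside the iHep range lay 19, against 64.1% of all genes, and the median difference was -0.31. Alb, for serum albumin, had a level of 2.68 in the mixed culture, 0.79, 2.73, 2.62 and 3.98 on the iHep arrays, and -7.26 to -5.40 on TTF. Its difference of 0.15 was well inside the SD of 1.31 between colonies. Afp, the fetal relative of albumin, had 4.89 in the mixed culture and 2.74 to 7.19 on iHep. Trf, for the iron carrier transferrin, had 6.24 in the mixed culture and 1.25 to 8.28 on iHep. Ttr, for the thyroxine carrier, had -1.10 in the mixed culture, against 1.75 and 2.79 on iHep 1 and 2 and -2.12 and -1.87 on iHep 3 and 4. The exceptions were Apob, the structural protein of very-low-density lipoprotein, with -0.77 in the mixed culture and -3.82 to -1.82 on iHep, and Apoc2, the activator of lipoprotein lipase, with 2.11 in the mixed culture and 3.23 to 6.52 on iHep. Among 27 coagulation and complement genes, Serpind1, for the thrombin inhibitor heparin cofactor II, was higher (3.03 in the mixed culture and -2.09 to -0.12 on iHep). Mbl2, for mannose-binding lectin, was lower and not above the limit in the mixed culture. The colony ranges are wide because of the pairs, which makes it harder for a gene to fall outside them.

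Of 23 liver transcription factors 0 were higher and 2 lower, Foxa2 and Gata4, against 1.23% of all genes lower, and the median was -0.44. The mixed culture lay below every iHep array for 5 of the 23, against 25.1% of all genes, and inside the iHep range for 17. Foxa2, an endoderm pioneer factor, had a level of -3.57 in the mixed culture, -0.43, -1.32, -1.06 and -0.53 on the iHep arrays, and -9.08 to -8.60 on TTF. The colonies were close together here (-0.83 ± 0.42, SD, n = 4), and the mixed culture lay between them and TTF. Gata4 had -8.22 in the mixed culture, -7.03 and -7.23 on iHep 1 and 2, and -4.04 and -4.27 on iHep 3 and 4. Its difference of -2.57 came to -0.47 by its brightest probe. Foxa3, a relative of Foxa2, had -4.37 in the mixed culture and -5.32 to -3.15 on iHep, and Hnf4a, the nuclear receptor that governs hepatocyte identity, had -2.12 and -2.94 to -1.06. Whether the probes of these genes read the introduced copies is not given in the sources used here.

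Drug metabolism genes held 5 lower members and no higher one. Of 36 cytochrome P450 and drug metabolism genes 13.9% were lower, against 1.23% of all genes. The mixed culture lay below every iHep array for 17 and inside their range for 18, against 25.1% and 64.1% of all genes. The median was -0.71. Cyp2b10, the phenobarbital-inducible enzyme, had -7.10 in the mixed culture, -6.22 and -5.13 on iHep 1 and 2, and -2.48 and -0.77 on iHep 3 and 4. Aox3, an aldehyde oxidase gene, had -7.03 in the mixed culture and -5.67 to -3.21 on iHep. The lower members Cyp2d9 (-2.39), Gsta3 (-2.04) and Sult1a1 (-2.02) stood nearer the threshold. Pck1, for the first committed step of gluconeogenesis, had -6.51 in the mixed culture, close to iHep 1 (-6.16) and below iHep 2, 3 and 4 (-1.19, -0.29 and 0.62). Among 22 bile acid genes Baat, which conjugates bile acids, was lower (-7.33 in the mixed culture and -5.26 to -2.28 on iHep). Cyp7b1, an oxysterol hydroxylase, was higher, at 0.48 in the mixed culture, -9.19 and -7.50 on iHep 1 and 2, -3.57 and -3.48 on iHep 3 and 4, and 0.85 to 1.64 on TTF. Its level in the mixed culture lay just below the TTF range.

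Of 45 epithelial junction and keratin genes 1 was higher and 3 were lower (6.67%, against 1.23% of all genes), with a median of -0.37. Inside the iHep range lay 25 of the 45, against 64.1% of all genes. Cdh1, for E-cadherin, had a level of 2.76 in the mixed culture, averaged 3.01 on iHep and reached -7.45 to -6.51 on TTF. Krt18 had 5.98 in the mixed culture and 5.04 to 7.43 on iHep, and Epcam had -2.20 and -3.94 to -0.39. Cldn2, a pore-forming claudin, was lower by a similar distance from each colony (0.07 in the mixed culture and 2.23 to 2.77 on iHep). Krt23 was lower through iHep 3 and 4, at 1.01 in the mixed culture, 1.39 and 1.29 on iHep 1 and 2, and 6.44 and 6.18 on iHep 3 and 4. Cldn6, a claudin of embryonic epithelium, was the higher member, with -1.67 in the mixed culture and -8.69 to -4.18 on iHep.

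The place of the mixed culture between fibroblast and colony was read from genes chosen without its array. TTF were collected at day 42 and in another medium than iHep, so this place also holds culture time and medium. In iHep, 1059 genes (5.55%) were at least 4-fold above TTF with no overlap and 973 (5.1%) at least 4-fold below. Of the genes higher in iHep, the mixed culture lay at or beyond the iHep range for 712 (67.2%), between the ranges for 302 (28.5%) and at or beyond TTF for 45 (4.25%). Of the genes lower in iHep, it lay at or beyond the iHep range for 338 (34.7%), between the ranges for 551 (56.6%) and at or beyond TTF for 84 (8.63%). On a scale from 0 at the TTF mean to 1 at the iHep mean, its median position was 0.83 (interquartile range 0.64 to 1.01) for the higher genes and 0.59 (0.42 to 0.77) for the lower genes. These shares depend on the wide colony range. With iHep 1 and 2 alone the mixed culture reached the iHep range for 33.4% of the genes higher in iHep and 17.1% of those lower, and with iHep 3 and 4 alone for 23.3% and 11.4%. The median positions were then 0.74 and 0.54 with the first pair, and 0.60 and 0.51 with the second.

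The gene lists differed in this place. Of 20 plasma carrier genes higher in iHep than TTF, the mixed culture lay at or beyond the iHep range for 16, with a median position of 0.92, and of 28 epithelial genes for 18 (0.89). Of 16 cytochrome P450 and drug metabolism genes it did so for 6 (0.66). Of 14 collagens lower in iHep than TTF it lay between the ranges for 12 (0.39), and of 31 other matrix genes for 23 (0.40). The 5 interferon genes lower in iHep than TTF differed from all of these, since the mixed culture lay at or beyond the TTF range for all 5, with a median position of -1.11.

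**Figure D4:**
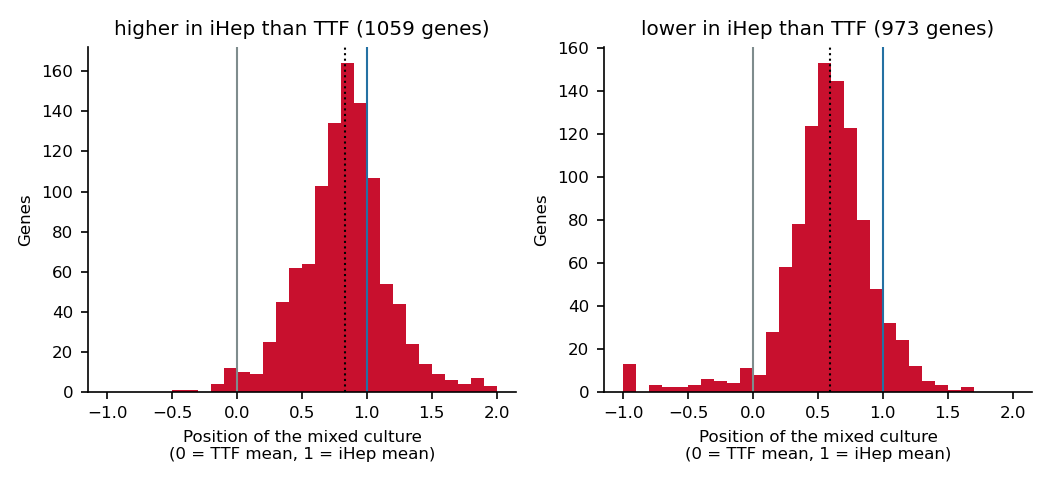
Number of genes by the position of the mixed culture on a scale from the TTF mean (0, grey line) to the iHep mean (1, blue line), for 1059 genes higher (left) and 973 lower (right) in iHep than TTF, with values beyond the axis ends put in the end bars. The dotted line is the median, 0.83 on the left and 0.59 on the right.

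Of 41 cell cycle genes 0 were counted. Above every iHep array lay 9, against 10.8% of all genes, and below every iHep array 0, against 25.1%. The median difference was 0.95, against -0.16 over all genes. This difference did not hold for iHep 2. The median level of the list was 1.63 in the mixed culture, 0.83 on iHep 1, 2.05 on iHep 2, and -0.22 and 0.02 on iHep 3 and 4. Mki67, the Ki-67 proliferation marker, had a level of 3.31 in the mixed culture, 1.48, 2.93, 1.63 and 1.42 on the iHep arrays, and 2.05 to 2.75 on TTF. Rrm2, a subunit of ribonucleotide reductase, had 2.54 in the mixed culture and 0.83, 2.59, -0.13 and 0.02 on iHep, so that iHep 2 was at the same level. Cdkn2a, the locus of p19Arf and p16Ink4a, had 1.55 in the mixed culture, -1.16 to 0.71 on iHep and 1.60 to 2.32 on TTF. Its probes were not placed relative to the deleted part, so these levels do not check the genotype.

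Of 18 fetal liver and progenitor genes 4 were higher (22.2%, against 2.77% of all genes) and 0 lower. These were Dlk1 (3.83), H19 (2.66), Mest (2.53) and Igf2 (2.08), all imprinted genes. H19 had a level of 0.85 in the mixed culture, -2.64 to -0.88 on iHep and -4.91 to -3.67 on TTF. Dlk1 had -3.10 in the mixed culture and -7.27 to -6.56 on iHep, below the 0.01 to 1.63 of TTF. These members therefore took different places relative to fibroblasts. Igf2 lay just above iHep 4 (1.16 in the mixed culture and 1.11 on iHep 4).

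Secreted signals were counted in both directions. Of 31 cytokine, chemokine and acute phase genes 5 were higher (16.1%) and 2 lower (6.45%), against 2.77% and 1.23% of all genes. Cxcl12, the stromal chemokine, had a level of 4.42 in the mixed culture, -1.93 to 1.60 on iHep and 1.89 to 4.28 on TTF. Ccl5, a chemokine for T cells, had 1.11 in the mixed culture, -3.88 to -1.46 on iHep and -2.66 to -1.81 on TTF. Csf1, Saa2 and Cxcl15 were the other higher genes. Lcn2, an iron-sequestering acute phase gene, was lower at 3.87 in the mixed culture and 5.12 to 6.64 on iHep, though far above TTF (-7.59 to -6.66). Of 22 endothelial genes, Eng and Flt4 were higher (9.09%) and Sox17 lower (4.55%). Eng is also among the fibroblast markers. No gene was counted among 14 keratinocyte, 20 anterior Hox, 16 sterol or 20 p53 pathway genes. With 2.77% and 1.23% counted over all genes, lists this short can hold none, so this does not set them apart.

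**Figure D5:**
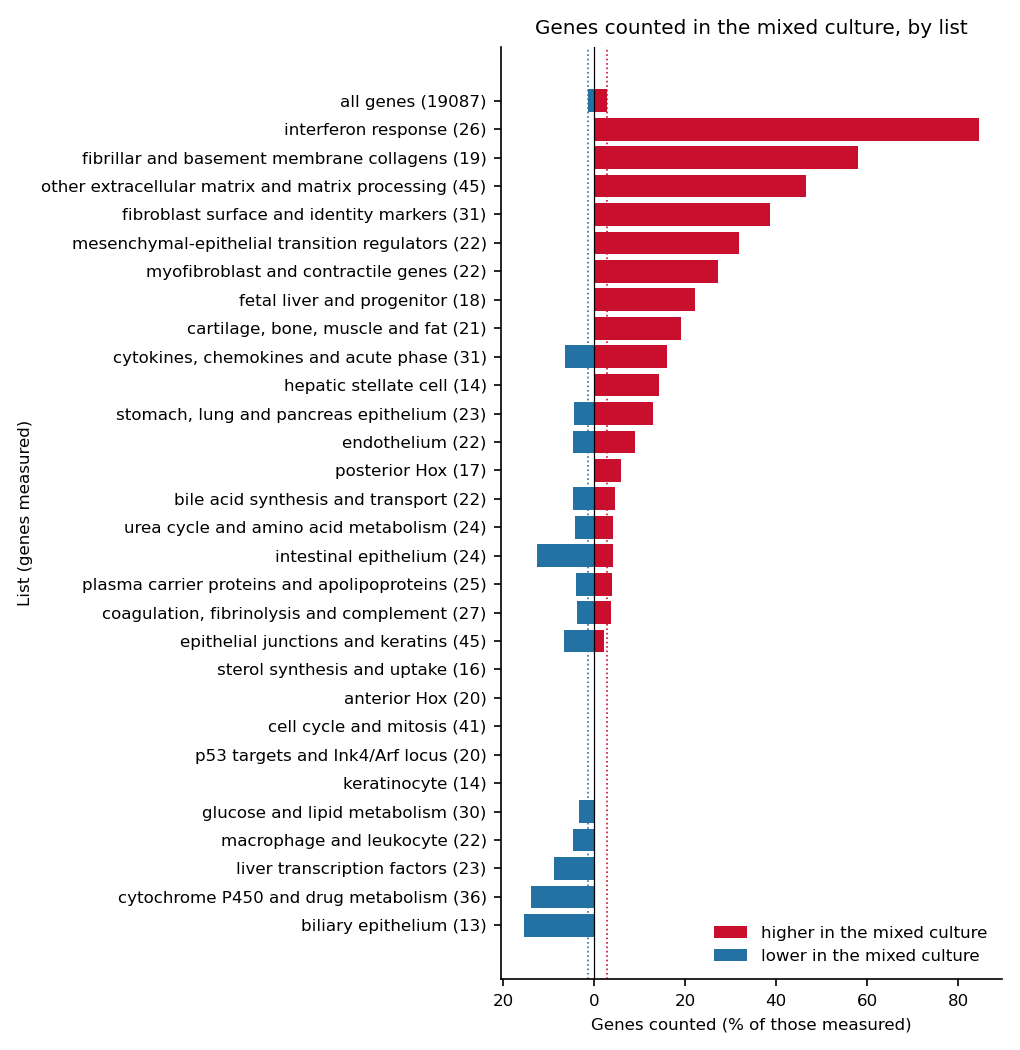
Share of measured genes counted higher (red, to the right) and lower (blue, to the left) in the mixed culture than on the 4 iHep arrays, in percent, for all genes and for the lists with more than 10 measured genes (number in brackets). Dotted lines mark the shares over all genes, 2.77% higher and 1.23% lower. The interferon list reaches 84.6% and the collagens 57.9%.

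Some genes lay outside everything else in the series. In the mixed culture 85 genes (0.445%) were at least 2-fold above all other 12 arrays and 13 (0.0681%) at least 2-fold below. Gcg, the glucagon precursor gene of pancreatic and gut endocrine cells, had a level of 2.94 in the mixed culture, -0.47 on iHep 1, -5.92, -3.97 and -6.89 on iHep 2, 3 and 4, and -7.61 to -6.99 on TTF. iHep 1 was the only other array where it came within 4 log2 units. Scgb1a1, the club cell secretoglobin of the airway, had 1.35 in the mixed culture, -5.11 to -3.04 on iHep and -5.74 to -3.61 on TTF. Corin, a membrane protease gene, had -0.99 in the mixed culture and -7.50 to -6.34 on iHep. Wif1, a secreted Wnt inhibitor gene, was at least 30.4-fold higher, with no iHep array above the limit. Haao and Slc39a12 also belonged to the farthest genes, but each rested on a bright feature beside another such feature on the array.

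On the lower side the features of Marchf9 (difference -10.75), Abcb6 (-8.50) and Git1 (-4.74) lay in a dim run of adjoining features of the mixed-culture array. They were among the 10 genes with the largest differences on the lower side. Tfg and Cdk5rap2 had 1 of their 2 probes in such a run. Outside such runs the largest differences were those of P2ry10, Them5 and Xist. P2ry10, a lysophosphatidylserine receptor gene, was not above the limit in the mixed culture and had -5.21 and -7.54 on iHep 1 and 2, against 1.96 and 1.23 on iHep 3 and 4. Them5, a mitochondrial thioesterase gene, had -7.71 in the mixed culture, not above the limit, and -4.11, -1.96, 1.04 and 0.79 on the iHep arrays. Procr, the endothelial protein C receptor gene, had 1.11 in the mixed culture, 2.49 to 7.39 on iHep and 2.08 to 2.44 on TTF. Xist follows the sex-linked split of the colonies. For Xist, P2ry10, Them5 and Procr the distance was largest from iHep 3 and 4.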

How the data were processed

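RNA of each sample was read on 1 one-colour Agilent array. The deposited values are linear intensities, made with Agilent Feature Extraction 10.5.1.1 per the submitters' processing notes. Background handling is not given in the sources used here.

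Intensities were put on the log2 scale, the 75th percentile of every array was subtracted, and the probes of a gene were averaged. Of 45018 features, 33653 had 1 symbol, 56 several and 11309 none, which gave 19087 genes. A feature counted as above the limit at 3 times the lowest value among the 101 features around it. A gene was above it where any probe was. Where 1 side had none above, a bound ("at least") replaces the fold. It sets the brighter side's mean against the higher of the limit and the signal on the other. Arrays were grouped by their titles. Sequences were matched to RefSeq by symbol.

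Members and lists were chosen with earlier results of these data known. Named genes are the 10 largest differences each way, the 2 largest of each list each way, preset markers, the genes farthest beyond all arrays, and the largest of each place. Other list members, and Ifnb1, Ifna4, Ifng, Ifnar1, Ifnar2 and Tfg, were chosen after their values were seen. Scripts ran in Python 3.11.15 (pandas 2.3.3, NumPy 2.4.6; figures, matplotlib 3.10.9). Counting was tested on simulated data with planted differences, small noise and no colony pairs. That checks the code and not how the rule behaves on these arrays. The number of arrays limits the precision.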

Additional observations from a re-analysis of the deposited data

Results flagged for a closer look

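Among 90 genes whose values were looked at by array, 4 had 1 iHep array far from the other 3 by a gap test. Chance meets this test in about 1 in 20 groups, so 4 of 90 is no more than that rate gives. Pdgfra had a level of -6.84 on iHep 2, against 0.07 to 1.15 on the others. Foxa3 had -5.32 on iHep 2, against -3.33 to -3.15. Mki67 had 2.93 on iHep 2, against 1.42 to 1.63. Irf1 had -2.62 on iHep 4, against -2.41 to -2.38, a gap of small size. iHep 2 was also the array with the fewest genes above the limit of measurement (73.8%). The part of that in these values was not tested.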

How the results depend on the processing

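No paired analysis was possible because the mixed culture has 1 array without a number and no test was made. Leaving out 1 iHep array at a time gave 537 to 596 higher and 205 to 419 lower genes, 20 to 22 interferon, 11 to 12 collagen, 21 to 24 other matrix, 12 to 13 fibroblast marker, 5 to 7 contractile and 6 to 7 transition regulator genes. The number of genes where the mixed culture reached the iHep range was 641 to 701 (higher in iHep than TTF) and 285 to 320 (lower), and 703 to 917 and 352 to 414 without 1 TTF array. With iHep 1 and 2 only, 392 genes were lower, 2 contractile genes were higher, and the range was reached for 415 and 201 genes. With iHep 3 and 4 only, 955 genes were higher and 917 lower, and the range was reached for 348 and 144. At a difference of at least 1, 1179 genes were higher and 1259 lower, with 33 other matrix and 12 contractile genes higher. At 3 these were 255 and 57, with 4 transition regulators. For iHep minus TTF of at least 1 and 3, the range was reached for 861 and 154 of the lower genes. At any distance, 419 genes lay above all other arrays, and 1097 that were above the limit on at least 1 other array lay below. Those below numbered 8 after quantile normalization and 7 without the bright and dim runs. By its brightest probe, Cdk5rap2 turned to 0.52. The median over all genes was -0.16, -0.11 and -0.02 with scaling to the 75th percentile, the median and quantiles. Of 860 values of the 86 named counted genes under the alternatives, 843 moved by less than 1 SD of the iHep arrays. Settings that keep only some iHep arrays cannot move a difference by 1 SD of those same 4 arrays. Only the changes of scaling, probe and limit could therefore fail this measure, and the SD also holds the distance between the colony pairs. Genes under the limit on every colony have only a bound.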

Other observations

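Among the 11309 features without a symbol, 173 were higher and 394 lower in the mixed culture by the same rule as for genes. Of 212 features at least 2-fold above all other arrays in the mixed culture, 52 adjoined another such feature on the array, and of 45 below, 10 did.

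Of 23 genes of stomach, lung and pancreas epithelium, 3 were higher, Gcg, Scgb1a1 and the surfactant protein gene Sftpc, which had a level of -3.48 in the mixed culture and -8.48 to -5.91 on iHep. Anxa10, a gastric annexin gene, was lower, with 0.01 in the mixed culture, an iHep mean of 2.84 and -6.69 to -5.27 on TTF. Of 24 intestinal genes 3 were lower (12.5%, against 1.23% of all genes), Reg1, Reg4 and Muc13. The lactase gene Lct was the 1 higher member, but it rested on a bright feature beside another such feature on the array. Reg3g, a gut antimicrobial lectin, lay inside the iHep range, at 7.32 in the mixed culture and 6.81 to 8.11 on iHep.

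Of 17 posterior Hox genes 1 was higher, Hoxc12 (5.88%, against 2.77% of all genes). Hoxc12 had a level of -0.62 in the mixed culture, -1.37 and -2.14 on iHep 1 and 2, -5.22 and -6.27 on iHep 3 and 4, and -0.57 to 0.91 on TTF. Its distance from iHep 1 and 2 was below 4-fold.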
